A study of Rattus norvegicus with 31 samples.

Results

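The Bcl2 family decides whether a mitochondrion releases the proteins that start apoptosis. The listed members were Bcl2, Mcl1, Bax, Bak1, Bid, Bcl2l1, Bcl2l11, Bbc3, Pmaip1 and Bad, and they were found by gene name or known alias among the non-control spots of the array. Of the 10 listed genes, 9 were found, out of 17274 gene symbols on the array, and they were read by 17 probes; Pmaip1 was not analysed here. Of these probes, 16 were well above background on 31 of 31 arrays and were tested, while 1 of the Bcl2l1 probes (A_43_P12577) was well above background on 1 array and was not.

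The samples are rat peripheral blood mononuclear cells (PBMC), a preparation made up mainly of lymphocytes with monocytes, and their RNA was hybridised to 31 Agilent arrays in 2 colours. The 3 groups are offspring of dams fed without restriction (WT in the titles, controls in the protocol, 7 arrays), offspring of dams given 20% less food from day 1 to day 12 of pregnancy and nursed without supplement (CR, 11 arrays), and offspring of such restricted dams that also received leptin, a hormone of fat tissue, up to postnatal day 21 at about 5 times what milk supplies (CR-L, 13 arrays). All offspring then ate chow freely for 4 months before blood was drawn, and females and males were both used, with sex and litter not given for each sample. Since 16 rats were mated, several of the 31 samples may share a dam, so p-values that treat samples as independent may be too small. The series asks whether leptin during suckling offsets effects of maternal restriction, so CR and CR-L were each compared with WT and CR-L was compared with CR.

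In healthy cells the guardians Bcl2, Bcl-xL (from Bcl2l1) and Mcl1 hold the pore-forming proteins Bax and Bak1 in check on the outer mitochondrial membrane. The BH3-only proteins Bid, Bim (from Bcl2l11), Puma (from Bbc3) and Bad report stress, withdrawn growth factors or DNA damage by binding the guardians or by activating Bax and Bak1. Blood cells depend on the balance in different ways: Bcl2 and Mcl1 keep lymphocytes alive, Bcl-xL sets platelet life span and protects late red cell precursors, and Bim and Puma remove surplus lymphocytes.

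Some members were read at several places of their mRNA. The sequences shown here run 5′ to 3′ as in the array files. They are those of the probes that give a second reading of a gene whose first reading is compared with them below. Capitals mark the first ATG of the first Bcl2l1 probe and of the Bad probe. The Bcl2 probe lies at chr13:12904758-12904817, minus strand, of build rn4. The first Bcl2l1 probe (chr3:143178503-143178562, minus strand) begins with the start codon, and the second (chr3:143178021-143178080, minus strand) lies 482 bases downstream of it. The Bad probe holds an ATG at its base 22, with no stop codon before it in the same frame. This ATG is not annotated as a start codon, so whether translation starts there is not known from these data. The ends of the Bad probe lie farther apart on the genome (chr1:209617478-209617973, plus strand) than its 60 bases. The files give no position for the Bax probe.
Bcl2 A_44_P280776: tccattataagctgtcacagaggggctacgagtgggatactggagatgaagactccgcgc
Bcl2l1 A_44_P548065: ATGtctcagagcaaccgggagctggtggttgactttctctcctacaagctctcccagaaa
Bcl2l1 A_42_P623909: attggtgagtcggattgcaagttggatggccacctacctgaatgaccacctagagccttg
Bad A_44_P199624: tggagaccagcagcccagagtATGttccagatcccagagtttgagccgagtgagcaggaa
Bax A_43_P11800: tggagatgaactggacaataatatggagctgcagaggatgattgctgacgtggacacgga

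From the capitalised ATG no stop codon follows in frame before the end of the Bcl2l1 or the Bad probe. Of the other probes, Bcl2 A_44_P360756 (chr13:12903960-12904017, minus strand) is annotated in the files to an mRNA of the beta form of Bcl2. Bcl2l1 A_44_P254238 (chr3:143129343-143129402, minus strand) lies 49160 bases downstream of the start-codon probe. The Bak1 probe A_43_P12940 lies at chr20:5256042-5256101, minus strand, and the Bid probe A_44_P550497 at chr4:157297971-157298030, minus strand. The files carry no exon or untranslated-region annotation for these positions.

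All values that follow are log2 ratios of the sample (red) over a common pool of 5 random samples per group (green), so 0 is the level of the pool and a difference of 1 is a doubling. A gene was called where limma's adjusted p was under 0.05. Where a gene had several probes, the one of highest mean intensity stood for it in the test over 22262 features, and every member probe was also tested among all 26721 probes kept. In bulk RNA a change in the share of a cell type and a change of RNA per cell cannot be told apart.

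Of the 9 members, Bak1 was called, and it was called in CR-L against WT alone, where it was higher by 0.26 (SE 0.07, adjusted p = 0.0425, a factor of 1.20). That count of 1 of 9 stands against 3.54% of all features called in that comparison, 2.15% higher and 1.4% lower. No member was called in CR against WT, where 0.467% of features were called (0.355% higher and 0.112% lower, a split that was 76% higher here, 58.5% from Agilent's log ratio and 45.9% from the red channel alone), or in CR-L against CR, where 0 of 22262 features were called by limma and 516 had an unadjusted p under 0.05. At an unadjusted p under 0.05, CR-L against WT held 2 members higher (Bak1 and Bad) and 3 lower (Bbc3, Bcl2 and Mcl1), against 16.6% of all features (9.5% higher and 7.12% lower). CR against WT held 1 higher (Bak1) and 1 lower (Bbc3), against 12.4% (7.52% higher and 4.86% lower), and CR-L against CR held 0 of the 9, against 2.32%. The median difference over the members was 0.06 in CR-L against WT and 0.07 in CR against WT, beside 0.01 over all features in both. Both comparisons use the same WT arrays.

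**Figure D1:**
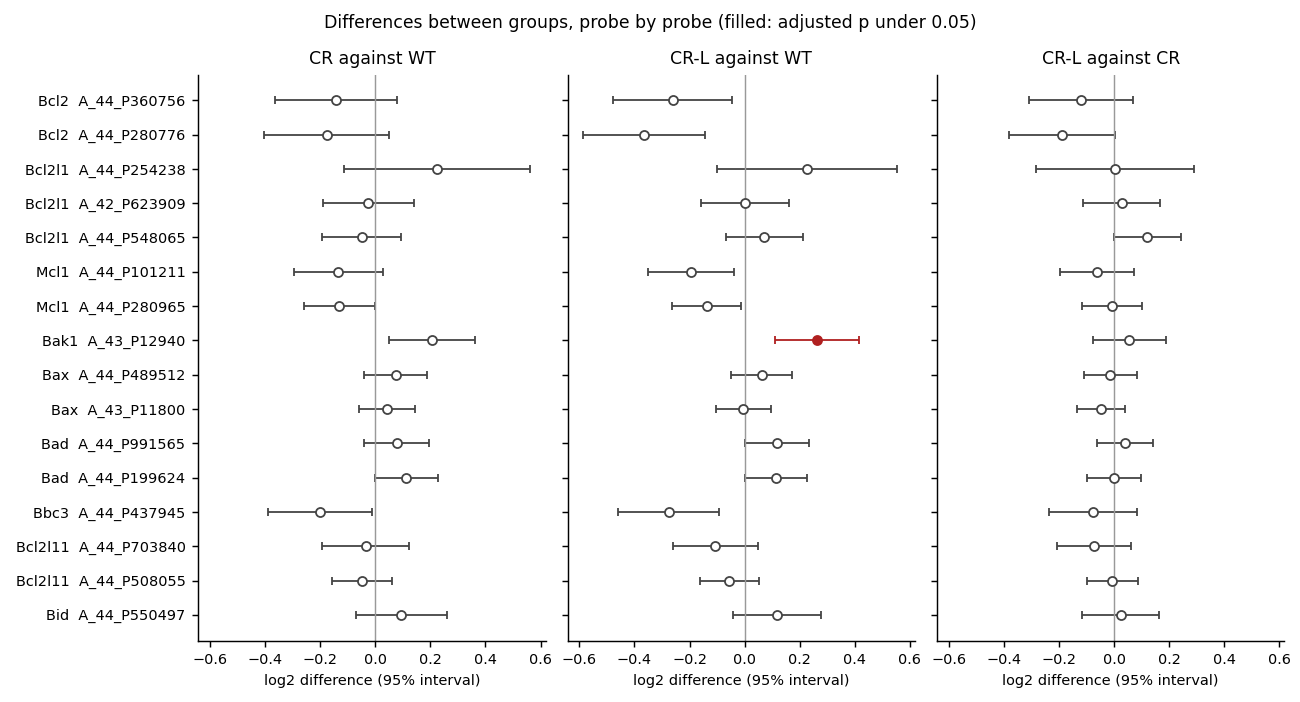
Log2 differences between groups (x axis) for the 16 member probes (y axis) in the 3 comparisons, with 95% intervals from the probe-level fit; filled points have an adjusted p under 0.05. The Bak1 probe in CR-L against WT, at 0.26, is the filled one, and the intervals of both Bcl2 probes, both Mcl1 probes and Bbc3 lie below 0 in that panel.

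Bak1, a pore-forming member that sits in the mitochondrial membrane of resting cells, was the only member with a called difference. In WT its log2 ratio ran from -0.33 through a median of -0.15 to 0.25. In CR it ran from -0.12 through 0.07 to 0.28, and in CR-L from -0.27 through 0.12 to 0.44. The groups overlapped, because WT replicate 7 stood at 0.25 while the other 6 WT arrays lay between -0.33 and -0.12, and because CR-L replicate 10 stood at -0.27. All 11 CR arrays and 12 of 13 CR-L arrays lay above the WT median. The group means were -0.14 ± 0.19 (SD, n = 7) in WT, 0.06 ± 0.12 (n = 11) in CR and 0.12 ± 0.18 (n = 13) in CR-L. CR was higher than WT by 0.21 (95% interval 0.05 to 0.36, adjusted p = 0.23), which did not pass, and CR-L minus CR was 0.06 (-0.08 to 0.19, adjusted p = 1.00). Within slides, CR-L lay above the WT array of the same slide on 7 of 7 slides (0.02 to 0.56) and CR on 6 of 7 (-0.19 to 0.44).

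The Bak1 call was close to the threshold. It was kept without WT replicate 7 (difference 0.33, adjusted p = 0.00686) and without CR-L replicate 10 (0.29, adjusted p = 0.00934). It was lost when any of WT replicates 1 to 6 was left out, at adjusted p from 0.0612 (replicate 1) to 0.116 (replicate 5), including 0.0771 without the bright replicate 6. Among the CR-L arrays it was lost without replicate 2 (0.0668), 3 (0.0537), 4 (0.0507), 5 (0.0599), 7 (0.0624), 11 (0.064), 12 (0.0626) or 13 (0.0502). The difference stayed between 0.23 and 0.33 throughout these. It was also lost in 6 of 13 other settings, among them Agilent's own log ratio (0.26, adjusted p = 0.0627) and a fit of the 2 groups compared alone (adjusted p = 0.0978).

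**Figure D2:**
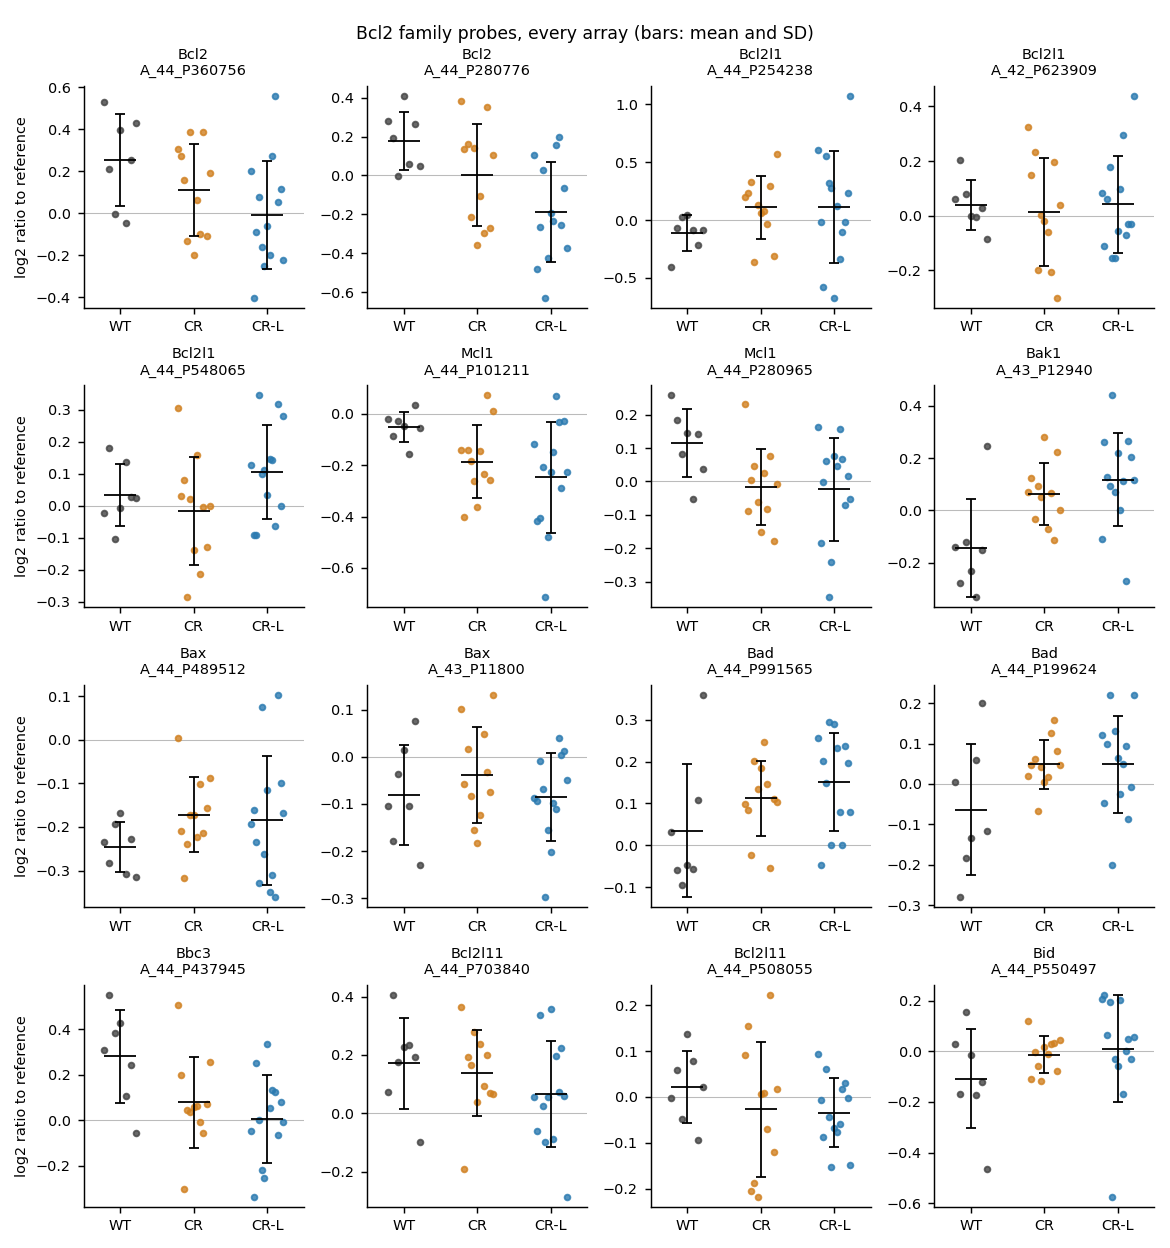
Log2 ratio to the reference pool (y axis) of the 16 member probes in every array, by group (x axis); points are arrays and bars the mean and SD of 7 WT, 11 CR and 13 CR-L arrays. Bak1 shows 6 WT arrays at or below -0.12 and WT replicate 7 at 0.25; Bcl2 A_44_P280776 runs from a mean of 0.18 in WT through 0.00 in CR to -0.19 in CR-L.

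Bax, the other pore-forming member, showed no difference that passed. Its brighter probe (A_44_P489512) ran from -0.31 through -0.23 to -0.17 in WT, from -0.32 through -0.17 to 0.00 in CR and from -0.36 through -0.19 to 0.10 in CR-L. The WT range lay inside both others. CR-L minus WT was 0.06 (-0.05 to 0.17) and CR minus WT 0.07 (-0.04 to 0.19), so these intervals hold differences of either sign. The 10-spot probe A_43_P11800 gave CR-L minus WT of -0.01 (-0.11 to 0.09) and CR minus WT of 0.04 (-0.06 to 0.15). Its 10 spots repeated with a median SD of 0.04 within an array, against 0.10 between arrays of a group.

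Bcl2, the guardian after which the family is named, was lower in CR-L than in WT at both probes, and neither passed. At the 10-spot probe printed above (A_44_P280776), WT ran from -0.00 through 0.19 to 0.41, CR from -0.36 through 0.10 to 0.38, and CR-L from -0.63 through -0.23 to 0.20. Of the 13 CR-L arrays, 9 lay below all 7 WT arrays, whereas 5 of the 11 CR arrays did. CR-L minus WT was -0.37 (95% interval -0.59 to -0.15, adjusted p = 0.0521), CR minus WT -0.18 (-0.40 to 0.05, adjusted p = 0.558) and CR-L minus CR -0.19 (-0.38 to 0.00, adjusted p = 1.00). The spots of this probe repeated with a median SD of 0.05 within an array, against 0.24 between arrays of a group, so the spot error of a mean of 10, at 0.02, is small beside the spread between samples. The beta-form probe (A_44_P360756) gave -0.26 for CR-L minus WT (-0.48 to -0.05, adjusted p = 0.184) and -0.14 for CR minus WT (-0.36 to 0.08). Over arrays the 2 probes rose and fell together (r = 0.88).

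The Bcl2 difference at the 10-spot probe lay just outside the threshold and moved across it. It passed in 9 of 12 other settings, at adjusted p from 0.0142 to 0.0485. Over all 12 the difference ran from -0.52 to -0.33 and the adjusted p up to 0.116. It also passed when CR replicate 1 (adjusted p = 0.0446), 6 (0.0469) or 9 (0.0456), or CR-L replicate 1 (0.0423), 4 (0.0465), 9 (0.0323) or 10 (0.0232) was left out. Within slides CR-L lay below the WT array on 7 of 7 slides (-0.72 to -0.09) and CR on 6 of 7 (-0.56 to 0.10).

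Mcl1, a short-lived guardian needed by most blood cells, was also lower in both treated groups without passing. At its brighter probe (A_44_P101211) WT ran from -0.16 through -0.05 to 0.03, CR from -0.40 through -0.18 to 0.07 and CR-L from -0.71 through -0.23 to 0.07. The WT arrays formed a tight band, and 8 of 13 CR-L arrays and 6 of 11 CR arrays lay below all of it. CR-L minus WT was -0.20 (-0.35 to -0.04, adjusted p = 0.165) and CR minus WT -0.13 (-0.29 to 0.03, adjusted p = 0.516). The second probe (A_44_P280965) gave -0.14 (-0.26 to -0.01) and -0.13 (-0.26 to -0.00). Within slides CR lay below the WT array on 7 of 7 slides at both probes, and CR-L on 6 of 7. The SD of CR-L arrays, 0.21, was wider than that of WT, 0.06, and the lowest CR-L value was that of replicate 5.

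Bcl2l1 was the most variable member, and none of its differences between groups passed. Its spread between arrays of a group, an SD of 0.36 at the downstream probe (A_44_P254238), exceeded that of 95.3% of features, whose median SD was 0.14. At that probe WT ran from -0.41 through -0.08 to 0.05, CR from -0.36 through 0.13 to 0.57 and CR-L from -0.67 through 0.12 to 1.07. CR-L minus WT was 0.23 (-0.10 to 0.55, adjusted p = 0.533) and CR minus WT 0.22 (-0.11 to 0.56, adjusted p = 0.636). The start-codon probe printed above (A_44_P548065) gave 0.07 (-0.07 to 0.21) and -0.05 (-0.19 to 0.09), and CR-L minus CR of 0.12 (-0.00 to 0.24, adjusted p = 1.00). The third (A_42_P623909) gave 0.00 (-0.16 to 0.16) and -0.03 (-0.19 to 0.14). The 3 probes correlated with each other at r from 0.42 to 0.60, beside 0.88 for the probes of Bcl2 and 0.80 for those of Mcl1.

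Among the BH3-only members, Bbc3, the p53-induced Puma gene, was lower by 0.28 in CR-L than in WT (difference -0.28, -0.46 to -0.09, adjusted p = 0.0831), which did not pass. WT ran from -0.06 through 0.31 to 0.55, CR from -0.30 through 0.06 to 0.51 and CR-L from -0.34 through 0.00 to 0.34. WT replicate 7 was the lowest of its group here, and 12 of 13 CR-L and 10 of 11 CR arrays lay below the WT median. CR minus WT was -0.20 (-0.39 to -0.01, adjusted p = 0.366). The CR-L difference passed without WT replicate 7 (-0.33, adjusted p = 0.0344) and in 3 of 13 other settings. On 7 of 7 slides CR-L lay below the WT array (-0.60 to -0.01).

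**Figure D3:**
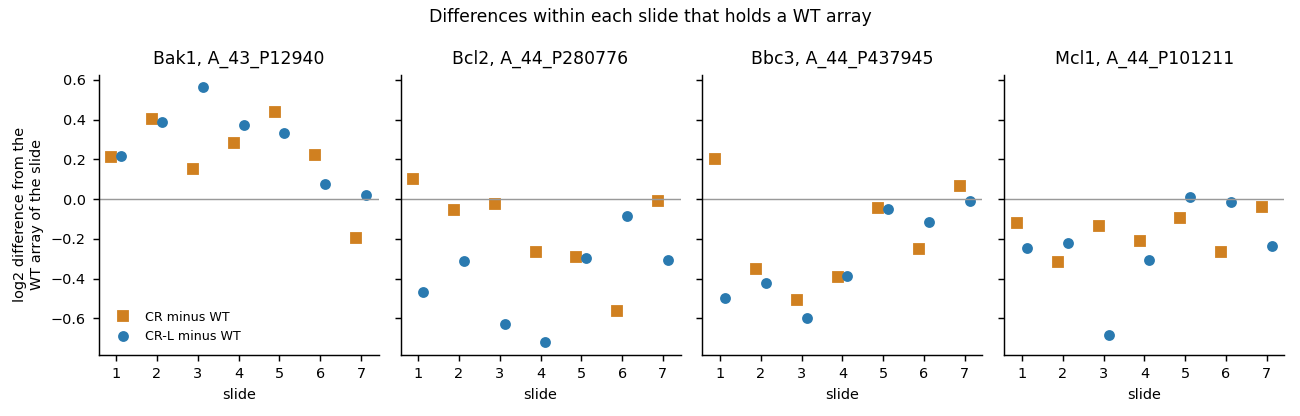
Differences from the WT array of the same slide (y axis, log2) for Bak1, Bcl2 A_44_P280776, Bbc3 and Mcl1 A_44_P101211 on the 7 slides that hold a WT array (x axis); squares are CR and circles CR-L, each the mean of its arrays on that slide. CR-L lies above 0 on 7 slides for Bak1 and below 0 on 7 slides for Bcl2 and Bbc3, and the CR-L difference of Bak1 is smallest (0.02) on slide 7, which holds WT replicate 7.

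Bad, which binds the guardians when survival signalling stops, was higher by about the same amount at both probes without passing. At the brighter probe (A_44_P991565) WT ran from -0.09 through -0.05 to 0.36, CR from -0.05 through 0.11 to 0.25 and CR-L from -0.05 through 0.20 to 0.30. WT replicate 7 was the highest of its group, as it was for Bak1, and all 13 CR-L arrays lay above the WT median. CR-L minus WT was 0.12 (0.00 to 0.23, adjusted p = 0.292) at this probe and 0.11 (0.00 to 0.22, adjusted p = 0.301) at the probe printed above (A_44_P199624). CR minus WT was 0.08 (-0.04 to 0.20) and 0.11 (-0.00 to 0.23). Although the mean differences were alike, the 2 probes did not move together from array to array (r = 0.00).

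Bid, which links death receptors to mitochondria, and Bcl2l11, the Bim gene, differed by less than their spread. Bid gave CR-L minus WT of 0.12 (-0.04 to 0.28, adjusted p = 0.488) and CR minus WT of 0.10 (-0.07 to 0.26). Its range was widest in CR-L, from -0.57 in replicate 5 to 0.22, and narrowest in CR, from -0.12 to 0.12. Bcl2l11 gave CR-L minus WT of -0.11 (-0.26 to 0.05, adjusted p = 0.531) at the brighter probe (A_44_P703840) and -0.06 (-0.16 to 0.05) at A_44_P508055. CR minus WT was -0.04 and -0.05. These 2 probes were also unrelated over arrays (r = 0.02), and the second was dim, with a median red intensity of 91.8.

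Certain arrays stood apart for many members at once. CR-L replicate 5 was the lowest CR-L array at 7 of the 16 member probes, among them both Mcl1 probes, Bcl2 A_44_P280776 and Bid, and the highest at 2, Bak1 and Bad A_44_P991565. It also had the largest SD of log2 ratios over all probes of any array (0.34, against 0.11 to 0.32 in the others) and the lowest CR-L mean of the B cell list (-0.78). WT replicate 7 was the lowest WT array at 6 member probes and the highest at 2, again Bak1 and Bad A_44_P991565, with the largest SD of log2 ratios of WT (0.27). CR replicate 1 was the highest CR array at 8 member probes and the lowest at 0. WT replicate 6 was brighter than the rest, with a median red intensity of 235 against 68.9 to 92.6. Their part in the results was not tested beyond leaving each out.

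Some member probes varied together over the 31 arrays. Of 120 pairs of member probes, 20 had a Pearson correlation with an adjusted permutation p under 0.05 (100000 resamples, two-sided, Benjamini-Hochberg over the 120), 15 positive and 5 negative. These include pairs of probes of the same gene, and all values of an array share its labelling, hybridisation and pool. The share of pairs of other probes on the array that would pass was not computed. The count of 20 therefore has no background to be read against.

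The guardians Bcl2 and Mcl1 rose and fell together. Bcl2 A_44_P280776 and Mcl1 A_44_P280965 had r = 0.79 and Spearman's rho = 0.75 (permutation p = 1e-05, the smallest that 100000 resamples can give, adjusted p = 0.0004). The correlation was 0.71 without the 2 arrays farthest from the Bcl2 median, 0.78 with group means subtracted and 0.78 with slide means subtracted. For the brighter probes of both genes r was 0.63 (rho = 0.66, permutation p = 0.00012, adjusted p = 0.0018), 0.59 without the 2 farthest arrays and 0.67 with slide means subtracted. Bbc3 went with them, at r = 0.66 with Mcl1 A_44_P280965 (rho = 0.58, permutation p = 1e-04, adjusted p = 0.00171), 0.58 without the 2 farthest arrays and 0.68 with slide means subtracted.

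Bak1 ran the other way. Its correlation with Bcl2 A_44_P280776 was r = -0.68 (rho = -0.67, permutation p = 2e-05, adjusted p = 0.00048), -0.59 without the 2 farthest arrays, -0.58 with group means subtracted and -0.73 with slide means subtracted. With the beta-form probe, which stands for Bcl2, it was weaker: r = -0.48 (permutation p = 0.00688, adjusted p = 0.0435), -0.37 without the 2 farthest arrays, -0.35 with group means subtracted (permutation p = 0.0552) and -0.57 with slide means subtracted. Its rho of -0.47 did not pass (adjusted p = 0.0612), and r was 0.46 within WT. With Mcl1 A_44_P101211 it was -0.62 (rho = -0.61, permutation p = 0.00019, adjusted p = 0.00253), -0.55 without the 2 farthest arrays, -0.51 with group means subtracted and -0.73 with slide means subtracted. The sign with Mcl1 was negative within CR (r = -0.77, 11 arrays) and positive within WT (0.33, 7 arrays). With Bad A_44_P991565, Bak1 had r = 0.61 (rho = 0.57, permutation p = 0.00035, adjusted p = 0.0042), 0.57 without the 2 farthest arrays and 0.63 with slide means subtracted. With Bax A_44_P489512 it had r = 0.52 (permutation p = 0.00298, adjusted p = 0.0223), which fell to 0.38 without the 2 farthest arrays, and rho = 0.44 did not pass (adjusted p = 0.0824).

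**Figure D4:**
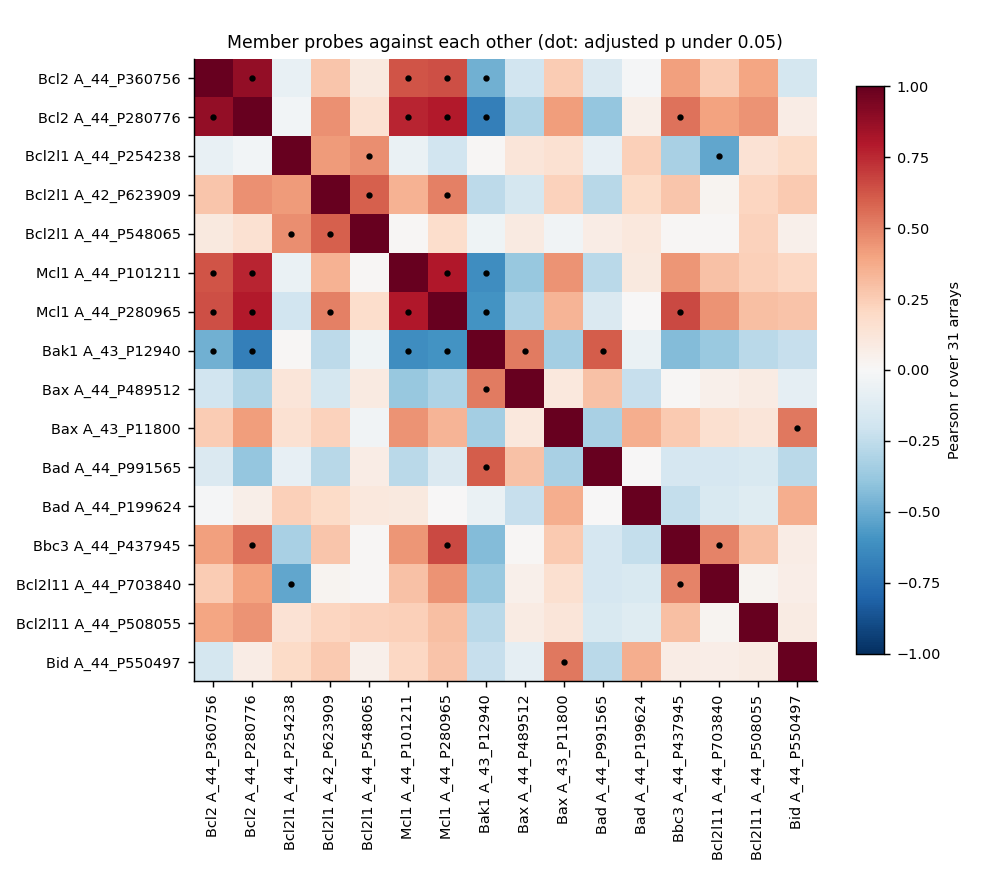
Pearson correlation (colour, from -1 to 1) between the 16 member probes over 31 arrays, ordered by role; a dot marks an adjusted permutation p under 0.05. Bcl2 and Mcl1 form a positive block (0.63 to 0.88), and the Bak1 row is negative against both (-0.68 to -0.48).

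The markers of blood cell types were set beside these values. Each of 7 marker lists was averaged per array, and 7 of 112 relations of a member probe with a list passed. The defining markers were detected: Ms4a1, Cd3e, Nkg7 and Cd14 were well above background on 31 arrays. No gene of any list was called in a comparison. The median difference in CR-L against WT was 0.23 over the 9 NK and cytotoxic genes measured, all above 0, and -0.21 over the 10 B cell genes, all below 0. It was -0.26 over the granulocyte list (7 of 9 below 0) and 0.21 over the erythroid list (14 of 16 above 0). The platelet list had a median of 0.47 in CR against WT (11 of 11 above 0) and -0.41 in CR-L against CR (11 of 11 below 0), where the erythroid list had 0.50 (14 of 16 above 0). List means per array ran from -0.35 to 0.19 in WT, -0.31 to 0.46 in CR and -0.59 to 0.46 in CR-L for the NK and cytotoxic list. For the B cell list they ran from -0.51 to 0.30, from -0.94 to 0.42 and from -0.78 to 0.34. Eomes, Cd79a and Pax5 of these lists were not measured.

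Mcl1 A_44_P101211 fell as the NK and cytotoxic list rose (r = -0.59, rho = -0.60, permutation p = 0.00047, adjusted p = 0.0179), with -0.61 without the 2 farthest arrays and -0.54 with slide means subtracted, while rho did not pass (adjusted p = 0.0504) and r was 0.30 within WT. Bak1 rose with it (r = 0.52, rho = 0.49, permutation p = 0.0029, adjusted p = 0.0464), with 0.42 without the 2 farthest arrays and 0.66 with slide means subtracted, while rho did not pass (adjusted p = 0.0962) and r was -0.13 within WT. Bcl2 A_44_P360756 had r = -0.50 with the list (adjusted p = 0.0546), which did not pass. Mcl1 A_44_P101211 rose with the B cell list (r = 0.52, rho = 0.41, permutation p = 0.00277, adjusted p = 0.0464). This rested in part on CR replicate 6 and CR-L replicate 5, without which r was 0.33. With slide means subtracted r was 0.61, with group means subtracted 0.47, and within WT -0.07. The rho of this relation did not pass (adjusted p = 0.256). The part of cell composition in the group differences of these members was not tested. Mcl1 A_44_P101211 also fell with the SD of log2 ratios of the array (r = -0.58, permutation p = 0.00073, adjusted p = 0.0467), less so without the 2 farthest arrays (-0.40), and the corresponding r of Bak1 was 0.47 (adjusted p = 0.168). For Mcl1 the rho with this SD, -0.46, did not pass (adjusted p = 0.328). At the second Mcl1 probe (A_44_P280965) none of these relations passed. Its r was -0.33 with the NK and cytotoxic list (adjusted permutation p = 0.367), 0.28 with the B cell list (0.396) and -0.35 with the SD (0.515).

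The Bcl2l1 probes followed platelet and red cell markers. The downstream probe (A_44_P254238) had r = 0.65 with the platelet list (rho = 0.57, permutation p = 0.00011, adjusted p = 0.0123), 0.74 with slide means subtracted, and 0.48 without CR-L replicates 3 and 7, whose platelet means of -2.95 and -2.55 lay far below the others. Within groups r was 0.80 in CR-L, 0.12 in CR and 0.22 in WT. All 3 probes rose with the erythroid list, at r = 0.61 for the downstream probe (adjusted p = 0.0179), 0.59 for the start-codon probe (adjusted p = 0.0179) and 0.57 for A_42_P623909 (adjusted p = 0.0184). Without CR-L replicates 13 and 2 these were 0.55, 0.52 and 0.45. Within WT they were 0.27, -0.58 and -0.82, so the start-codon probe and A_42_P623909 ran the other way there. No rank correlation of a Bcl2l1 probe with either list passed (adjusted p from 0.0515). The start-codon probe and A_42_P623909 had r of 0.18 and 0.14 with the platelet list. Of the platelet list 11 of 16 genes were measured, with Selp well above background on 1 array, and of the erythroid list 16 of 17. Platelet means ran from -1.52 to 0.27 in WT, from -0.58 to 0.79 in CR and from -2.95 to 0.76 in CR-L, and erythroid means from -0.78 to 0.15, from -1.51 to 0.62 and from -1.66 to 1.25.

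**Figure D5:**
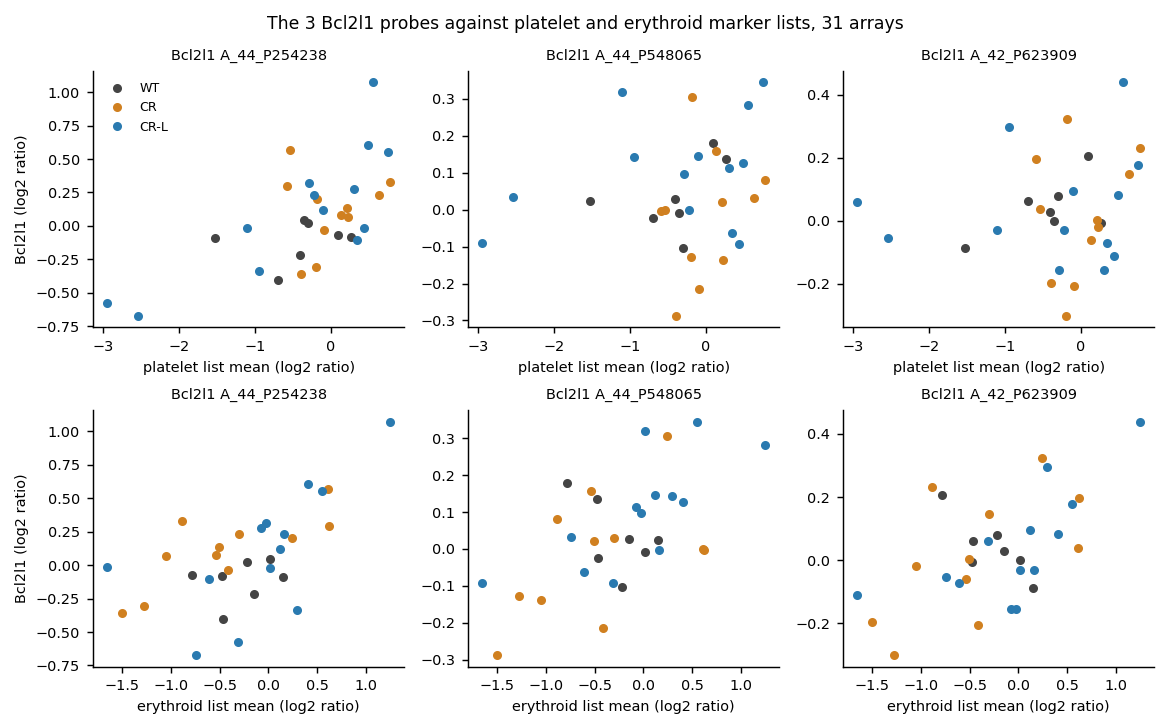
Log2 ratios of the 3 Bcl2l1 probes (y axis) against the mean log2 ratio of the platelet list (upper row) and the erythroid list (lower row) on 31 arrays, coloured by group. The downstream probe A_44_P254238 rises with both lists (r = 0.65 and 0.61), with CR-L replicates 3 and 7 at platelet means of -2.95 and -2.55 and CR-L replicate 13 highest on the erythroid list at 1.25.

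The rest of the pathway was taken from 6 lists of 81 genes, of which 72 were measured. In CR-L against WT 2 of the 72 were called higher and 5 lower, in CR against WT 0 and 1, and in CR-L against CR 0 and 0, against the background shares given for the members.

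Of the mitochondrial death machinery, 14 genes were measured. Aifm1, a mitochondrial protein that enters the nucleus in cell death, was 0.20 above WT in both groups (adjusted p = 0.0892 in CR-L) and did not pass.

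Of the 7 inhibitors of apoptosis, 2 fell in CR-L. Tnfaip3, the A20 brake on NF-kB, fell by 0.71 (SE 0.18, adjusted p = 0.0228), from a median of 0.16 in WT to -0.45 in CR-L. Birc3, an inhibitor-of-apoptosis protein that acts in NF-kB signalling, fell by 0.66 (SE 0.15, adjusted p = 0.0118), from a median of 0.36 in WT to -0.29 in CR-L. In CR the differences from WT were -0.36 (adjusted p = 0.449) and -0.52 (adjusted p = 0.125). The Tnfaip3 call was lost without WT replicate 4 (-0.65, adjusted p = 0.0729) or 6 (-0.68, adjusted p = 0.054).

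Of 9 death receptor genes, 1 fell in CR-L. Cflar, the caspase-8 inhibitor cFLIP, fell by 0.22 (SE 0.05, adjusted p = 0.00911), while its second kept probe differed in the opposite direction, and the mean of both was -0.04 (adjusted p = 0.601). Tnfrsf1a, a receptor of tumour necrosis factor, was 0.37 higher (adjusted p = 0.148) and did not pass.

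Of 12 measured p53 partners and inducers of BH3 genes, 1 fell in CR and 2 in CR-L. Foxo1, a transcription factor that switches on Bcl2l11 and Bbc3 in some cells, fell by 0.46 in CR (SE 0.10, adjusted p = 0.0245) and by 0.48 in CR-L (SE 0.09, adjusted p = 0.00301). Its WT arrays ran from -0.06 through 0.37 to 0.74, and its CR-L arrays from -0.30 through -0.07 to 0.24. The call in CR was lost without WT replicate 2 (-0.41, adjusted p = 0.074), 4 (-0.40, 0.0961) or 6 (-0.47, 0.0558) or CR replicate 8 (-0.43, 0.0537). Gadd45a, a growth arrest gene induced by p53, fell by 0.31 in CR-L (SE 0.08, adjusted p = 0.0245) and was -0.30 from WT in CR (adjusted p = 0.0779). Its call in CR-L was lost without WT replicate 5 (-0.30, adjusted p = 0.0556), 6 (-0.30, 0.053) or 7 (-0.28, 0.0517).

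Of 15 measured kinases, ligases and scaffolds that modify the family, 1 rose. Ywhag, a 14-3-3 protein of the kind that holds phosphorylated Bad in the cytosol, rose by 0.45 in CR-L (SE 0.08, adjusted p = 0.00194) and was 0.31 above WT in CR (adjusted p = 0.0748). Pim3, a kinase that can phosphorylate Bad, was -0.33 from WT in CR-L (adjusted p = 0.0916). Of 15 other family members measured, 0 were called. Bik, a BH3-only gene, was 0.32 higher in CR-L (adjusted p = 0.0833), and Bcl2l12 was -0.14 from WT (adjusted p = 0.143). With the spread of log2 ratios scaled to be equal between arrays, the CR-L calls of Birc3, Tnfaip3, Foxo1 and Ywhag were lost (adjusted p from 0.0732 for Foxo1 to 0.196 for Ywhag). The CR call of Foxo1 was lost under this scaling too (adjusted p = 0.448). With the replicate number as a block, the calls of Foxo1 in CR (adjusted p = 0.121) and of Cflar (0.126) and Gadd45a (0.154) in CR-L were lost. That fit held only the 2 groups compared, with 7 arrays of each. From the authors' deposited series table, Cflar in CR-L (adjusted p = 0.0545) and Foxo1 in CR (0.0675) did not pass.

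For each member the features whose log2 ratios were most like it over the 31 arrays were taken from 11526 with an established symbol, as a description. Bcl2 (A_44_P360756) was most like Rgs1 (r = 0.86), Hat1 (0.82) and Arid5a (0.81). Mcl1 was most like Arf6 (0.87), Tmem59 (0.87) and Yrdc (0.84), and Bcl2l1 like Adissp (0.86), Specc1 (0.86) and Rnf10 (0.84). Bak1 was most like Saysd1 (0.85), Nagk (0.83) and Fasn (0.83), and Bax like Golga2 (0.84), Akt1s1 (0.83) and Phf1 (0.82). Bid was most like Akt1 (0.84), Dnajc5 (0.84) and Ppp1r18 (0.82), and Bad like Cebpd (0.77), Acvrl1 (0.77) and Slc52a2 (0.74). Bbc3 was most like Ube2d2b (0.74), Ankrd49 (0.73) and Zbtb43 (0.73), and Bcl2l11 like Sft2d2 (0.80), Rsrc1 (0.75) and Mef2d (0.75). Akt1, which phosphorylates Bad, is also on the list of modifiers.

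Promoters are shown for 3 members that varied together, Bcl2 and Mcl1 in one direction and Bak1 in the other. Bbc3, which went with Bcl2 and Mcl1, had no promoter entry in the reference used. The promoters are the 250 bases before the RefSeq start on GRCr8, 5′ to 3′ on the gene's strand, with capitals where a searched motif matched. The motifs, searched on both strands, were GGGCGG (GC box), CCGGAAG (ETS core), CACGTG (E-box), TGACGTCA (cAMP response element), TGTTTAC (forkhead) and TTCNNNGAA (STAT). Of 33469 promoters of the same length, 30.5%, 7.27%, 5.59%, 1.59%, 3.21% and 7.67% hold each of them in that order. The E-box, cAMP and STAT motifs read the same on both strands, and no motif contains another.
Mcl1, chr2:185907918-185908167, plus strand: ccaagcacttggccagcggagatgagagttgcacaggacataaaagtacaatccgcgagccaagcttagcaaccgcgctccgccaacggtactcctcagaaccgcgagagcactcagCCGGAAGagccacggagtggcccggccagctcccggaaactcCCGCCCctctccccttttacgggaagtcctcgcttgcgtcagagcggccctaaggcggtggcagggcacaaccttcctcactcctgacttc
Bcl2, chr13:23366901-23367150, minus strand: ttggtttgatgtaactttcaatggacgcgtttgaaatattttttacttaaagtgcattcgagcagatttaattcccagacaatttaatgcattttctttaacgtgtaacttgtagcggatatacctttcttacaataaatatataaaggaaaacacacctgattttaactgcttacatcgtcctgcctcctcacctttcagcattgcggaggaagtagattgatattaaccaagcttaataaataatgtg
Bak1, chr20:5110975-5111224, minus strand: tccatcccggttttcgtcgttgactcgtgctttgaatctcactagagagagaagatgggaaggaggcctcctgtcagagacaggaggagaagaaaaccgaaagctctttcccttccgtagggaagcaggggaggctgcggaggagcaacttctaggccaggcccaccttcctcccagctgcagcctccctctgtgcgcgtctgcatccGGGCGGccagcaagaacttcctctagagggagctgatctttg

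The Mcl1 window holds 1 GC box, 91 to 86 bases before the start on the other strand, and 1 ETS core, 133 to 127 bases before it. The Bak1 window holds 1 GC box, 42 to 37 bases before the start. None of the 6 motifs matched in the Bcl2 window, whose GC content of 33.6% is below that of Mcl1 (62%) and Bak1 (57.6%) and below the median of all promoters, 51.2%. Letters that match, or do not match, are a description of these windows.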

How the data were processed

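Each array held 1 Cy5-labelled PBMC sample against a Cy3-labelled reference pool, with no dye swap, per the labels. The deposited scanner files, made with Agilent Feature Extraction 10.7.3.1 per the submitters' processing notes, give red and green spot intensity and Agilent's log10 ratio, on build rn4 per the file headers. The authors' deposited series table holds log2 values. They follow the log2 red intensity (r from 0.993 to 0.999 per array) and every column has a median of 8.17; the steps behind them are not given in the sources used here.

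Intensities were background-corrected (normexp, offset 50) and loess-normalized within arrays with limma 3.58.1 in R 4.3.3. Control spots and 5483 outlier spots (0.408%) were left out, spots of a probe were averaged, and a probe was kept where its red signal was well above background on 7 or more arrays. limma (lmFit, eBayes) was fitted to all 31 arrays, with Benjamini-Hochberg adjustment over all features and a threshold of 0.05. Median red intensity was 69.8 to 235 per array over a background of 27 to 30.5, and precision is limited by how many arrays each group has. The highest correlation between arrays was 0.78, so no array was a copy of another. Whether any sample was hybridised more than once was not tested. Gene names were updated through RefSeq (GRCr8): 18971 probes through their accession, 218 through one in the description text, 2996 by current and 204 by older symbol; 1007 kept the file's name and 17616 had none.

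The members and all lists were chosen with earlier results of these data known. Named are every member probe, the pathway genes called in any comparison and otherwise the 2 of smallest p per list, and the 3 features most like each member. Scripts were tested on simulated data. Other background corrections, normalizations, filters, blocks, weights, sample sets and probe rules were tried, and each array was left out in turn. Some results on genes of these lists are not reported here.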

Additional observations from a re-analysis of the deposited data

Results flagged for a closer look

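The Bak1 value of WT replicate 7 was 0.25 on the log2 ratio scale, while the other 6 WT arrays lay between -0.33 and -0.12. Its gap to the nearest of them was 0.64 of the range of the group, above the 95% critical value of 0.568 for 7 samples. Of the 16 member probes tested in this way in WT, 1 passed that value, and chance alone passes about 1 in 20. Without this array CR-L was higher than WT by 0.33 (limma, adjusted p = 0.00686).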

How the results depend on the processing

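Over all alternatives, 1135 of 1188 values of member genes, 639 of 688 of further member probes and 1019 of 1056 of named pathway genes kept their direction and their side of the threshold. For the members these shares rest mainly on values that were not called in the main fit. The 20 member-gene values that lost a call were all of Bak1 in CR-L against WT, 6 in other settings and 14 with 1 array left out. The count of features called in CR against WT, 104, was 65 from Agilent's log ratio, 2 with scale normalization between arrays, 37 from the red channel alone, 66 with no filter, 170 for probes above background on all arrays, 397 with array weights and 197 in a fit of the compared groups only. Limma on the authors' table called 0, with 2135 at an unadjusted p under 0.05. Leaving out 1 array gave 17 (without WT replicate 4) to 207 (without CR replicate 9). CR-L against CR had 0 features called by limma under every alternative, with 256 to 929 at an unadjusted p under 0.05 in those other than left-out arrays. In CR-L against WT the 789 became 120 with scale normalization and 500 from the authors' table, and 420 to 1100 with 1 array left out. Bak1 in CR-L against WT lost its call from Agilent's log ratio (0.26), with scale normalization (0.42), from the authors' table (0.29), with no filter (0.26) and with the compared groups only (0.26), and ranged from 0.23 to 0.33 with 1 array left out. The cause was not tested.

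The fit with the replicate number as a block held only the 2 groups compared and the numbers present in both. That left 7 arrays per group against WT and 11 per group in CR-L against CR. In it, CR against WT had 0 features called by limma (3648 at an unadjusted p under 0.05), CR-L against WT had 187, and Bak1 was 0.30 (adjusted p = 0.16). The part of the block and the part of leaving out arrays were not told apart. Deviations of same-numbered samples correlated over 0.1 in 1 of 7 pairs (CR and WT), 3 of 7 (CR-L and WT) and 3 of 11 (CR-L and CR). In the same order, 1, 2 and 1 samples correlated best with their own number, and 3, 1 and 1 pairs lay on the same slide. Whether same-numbered samples share a litter or handling was not tested. Under this block Bcl2l1 in CR-L against CR was -0.0956 and A_42_P623909 was -0.0626 in CR-L and 0.0214 in CR against WT.

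Values near 0 changed sign. Bcl2l1 in CR-L against CR was -0.0156 (Agilent), -0.0136 (no background correction), -0.195 (scale), -0.00144 (red alone), -0.00059 (authors' table), -0.0201 (slide block) and -0.0154 (weights). Bid there was -0.0237, -0.00901, -0.00885, -0.0408, -0.0175 and -0.00143 under the first 6 of these. Bcl2l1 A_42_P623909 in CR-L against WT was -0.102, -0.0441, -0.0528, -0.0812, -0.107, -0.0288 and -0.0148 under the same 7. A_44_P548065 in CR against WT was 0.0117 (no background correction), 0.102 (red alone) and 0.00342 (authors' table). Bax A_43_P11800 in CR-L against WT was 0.0598 (scale) and 0.0159 (weights), and Bcl2l11 A_44_P508055 from red alone was 0.0575 in CR and 0.0253 in CR-L. With 1 array left out, Bcl2l1 in CR-L against CR ran from -0.0773 to 0.0681, Bax there from -0.0369 to 0.00462, A_42_P623909 from -0.0315 to 0.0292 in CR-L and -0.0567 to 0.00575 in CR against WT, A_43_P11800 in CR-L against WT from -0.0303 to 0.0203 and Bcl2l11 in CR against WT from -0.0805 to 0.00396.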
